A study of Mus musculus with 8 samples.

Results

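The interferon-response genes are 34 genes whose mRNA is known to rise when cells sense interferon. They were picked by name from the 36868 gene names on the array, by a rule that uses no measured value, and 31 of them could be tested among 22378 genes. Total RNA of whole kidney had been hybridised to 1-colour Agilent arrays, 1 array per mouse, from 8 male mice of 20 weeks in 4 groups of 2. Normal mice were of the strain C57BLKS/J Iar -m+/m+. The other 3 groups were C57BLKS/J Iar -+Leprdb/+Leprdb mice (db/db), homozygous for a mutation of the leptin receptor that leads to obesity and diabetes. These db/db mice had been left untreated, had been given nanoparticles labelled PEI-NPs with a control miRNA, or had been given PEI-NPs with a miR-181b-5p mimic. A mimic is a synthetic RNA that takes the place of the natural miRNA. No normal mouse received nanoparticles, and no db/db mouse received nanoparticles without RNA, so the effect of the carrier is part of both treated groups. The labels number the 2 mice of each group, and say nothing of dose, route or duration.

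Interferons are secreted proteins that warn cells of viruses and other threats. Type I interferons (alpha, beta, kappa) and type III interferons (lambda) lead through JAK kinases to a complex that holds STAT2 and IRF9 and binds interferon-stimulated response elements. Interferon gamma acts mainly through gamma-activated sites and raises IRF1, the immunity-related GTPases and the guanylate-binding proteins. In the kidney, tubular, endothelial and resident immune cells can all answer to interferon.

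Levels are log2 of the background-corrected intensity relative to the 75th percentile of the same array, so 0 is that percentile and 1 unit is a doubling. A level serves to compare arrays for 1 gene, not genes with each other. Differences were tested with limma over all 22378 genes, and a gene passed at a Benjamini-Hochberg adjusted p under 0.05. The 2 mice of a group are taken as separate animals from their labels. The smallest p that an exact permutation test of 2 against 2 mice allows is 0.333. The p-values of limma go below it because they borrow variance across genes and groups.

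Replicate arrays correlated over all genes at 0.992 in normal, 0.997 in untreated, 0.995 in control miRNA and 0.976 in mimic kidney. Mimic replicate 1 stood apart from the other 7 arrays, and the results that rest on it are given with and without it. Normal and untreated mice lay in the first row of the slide and treated mice in the second, and each group had its own pair of columns within its row, so place on the slide and group cannot be told apart. Markers of tubule and glomerulus, such as Umod and Slc34a1, were well above background on all 8 arrays.

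The start regions of the members show the elements by which this group of genes is known. RefSeq start windows (GRCm38.p6, 250 bases before and 50 after the annotated start) were at hand for 24 of the 34 genes. The response element core GAAANNGAAA, read on either strand, was present in 14 of the 24 genes (58.3%), against 3.94% of 27001 other genes. The gamma-activated site core TTCNNNGAA, which reads the same on both strands, was present in 6 of the 24 (25%), against 9.54% of the others. Bst2, Igtp and Oas1a held both motifs, and 7 of the 24 held neither in this window. A match is a description of these letters, not a binding site.

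The stretches below are from 9 of the members with a match, chosen after the values were seen. Oas2, Iigp1, Irf7 and Parp14, which are among the members with the largest differences, are not shown. All 9 stretches are 30 bases long, lie upstream of the start and read 5′ to 3′ on the gene's strand, with matches in capitals. They show the tandem response elements of Isg15 and Oas1a, the inverted copies of Ifit1, Gbp2, Gbp3 and Rsad2, the joined sites of Igtp, the element of Irgm1 and the gamma-activated site of Irf1.
Oas1a, chr5:120907526-120907555, minus strand: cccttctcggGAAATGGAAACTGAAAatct
Isg15, chr4:156200871-156200900, minus strand: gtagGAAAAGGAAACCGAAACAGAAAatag
Ifit1, chr19:34640784-34640813, plus strand: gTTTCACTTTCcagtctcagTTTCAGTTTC
Rsad2, chr12:26456553-26456582, minus strand: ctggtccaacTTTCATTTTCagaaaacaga
Gbp2, chr3:142620594-142620623, plus strand: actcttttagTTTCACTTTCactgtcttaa
Gbp3, chr3:142559992-142560021, plus strand: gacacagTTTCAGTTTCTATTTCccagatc
Igtp, chr11:58199506-58199535, plus strand: gccatTTCTAGGAActGAAACTGAAAgctg
Irgm1, chr11:48871428-48871457, minus strand: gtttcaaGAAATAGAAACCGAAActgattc
Irf1, chr11:53769913-53769942, plus strand: aacagcctgatTTCCCCGAAatgatgaggc
In Igtp the gamma-activated site spans positions -45 to -37 and the response element -34 to -25 from the start, 2 bases apart from each other. In Isg15 the 3 overlapping matches begin at -78, -72 and -66, and in Oas1a the 2 overlapping matches begin at -20 and -14.

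**Figure D1:**
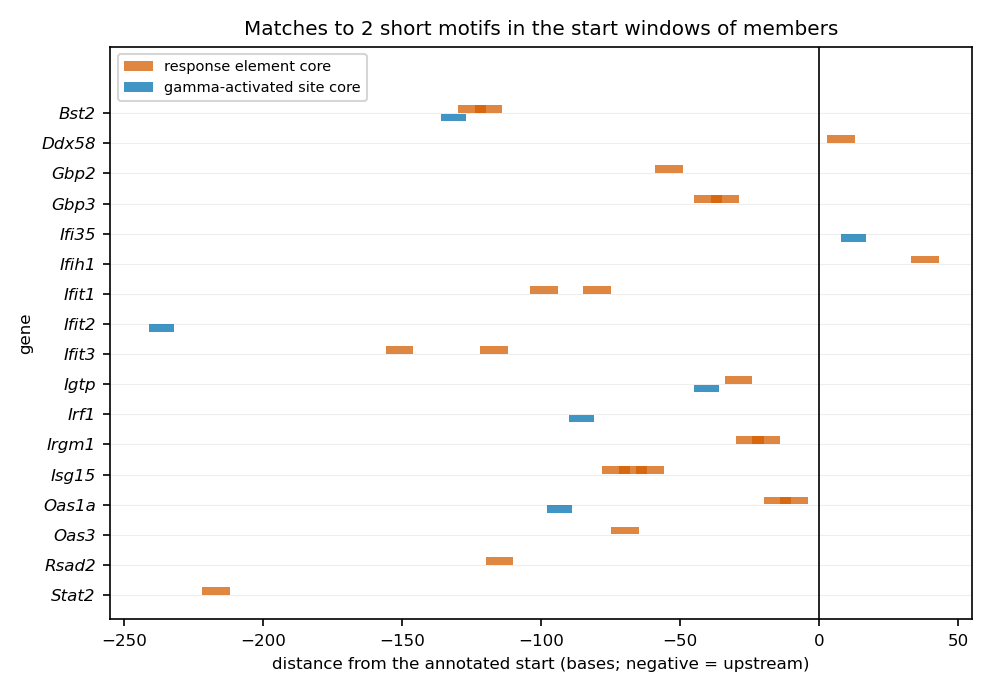
Matches to the response element core (orange) and the gamma-activated site core (blue) in the start windows of the 17 members that hold at least 1 match, by distance from the annotated start in bases, negative upstream. Matches upstream of the start begin between -14 in Oas1a and -241 in Ifit2, while those of Ddx58, Ifih1 and Ifi35 lie downstream of the start.

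The mimic carries the sequence of miR-181b-5p, printed here from RefSeq with its seed, bases 2 to 8, in capitals, because the seed is the part by which a miRNA finds its targets.
mmu-miR-181b-5p: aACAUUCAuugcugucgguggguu

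Across the 8 arrays most members were lowest in untreated db/db kidney and highest on 1 mimic array. Set against the mean of the normal arrays, the median of the 31 tested members was -0.77 and -0.84 on the 2 untreated db/db arrays. It was -0.20 and -0.55 on the control miRNA arrays. On the mimic arrays it was 1.46 for replicate 1 and -0.36 for replicate 2, so the mimic group joined the highest array of the study with an array in the range of the control miRNA group. Untreated replicate 2 was the lowest of the 8 arrays for 18 of the 31 members and untreated replicate 1 for 7, while mimic replicate 1 was the highest for 30.

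**Figure D2:**
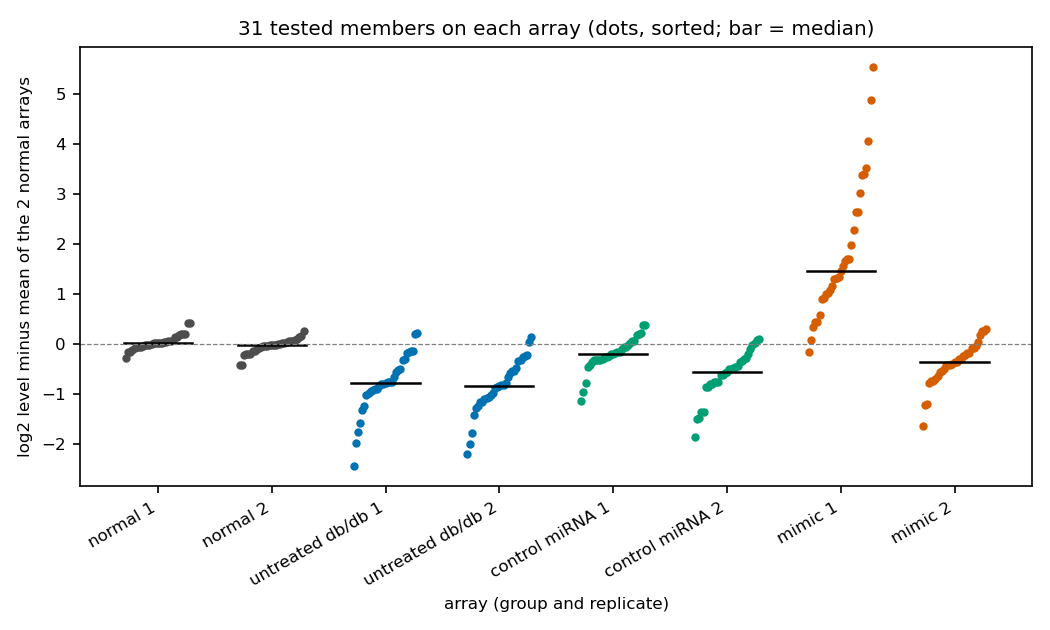
Log2 level of each of the 31 tested members minus the mean of the 2 normal arrays (vertical axis), on each of the 8 arrays (horizontal axis), with dots sorted by value and a bar at the median. The 2 untreated db/db arrays sit lowest, with medians of -0.77 and -0.84, and mimic replicate 1 stands alone with a median of 1.46 and a highest value of 5.55.

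The first comparison set untreated db/db against normal kidney and asks how the mutant genotype differs. Of the 31 members, 29 lay lower in db/db kidney, by a median of 0.85 on the log2 scale, and 27 had both db/db arrays below both normal arrays. Among all genes tested, 35.0% lay lower without overlap and the median difference was -0.043. None of the members passed in limma with all 8 arrays (0 of 31, against 3.50% of all genes), and 4 had an unadjusted p under 0.05. All 784 genes called split into 278 higher and 506 lower, and into 495 higher and 469 lower under quantile normalization.

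The spread that this test uses is shared by the 4 groups and takes in the distance between the 2 mimic arrays. Without mimic replicate 1 the differences between db/db and normal kidney are the same by construction, and 16 of the 31 members passed, all lower, against 14.9% of all genes. With only the 2 groups compared in the fit, 19 members passed, against 10.6% of all genes, and 14 members passed in both. Leaving out mimic replicate 2 instead of replicate 1 gives the same fit for this comparison. Whether the members fell in db/db kidney at this threshold therefore depends on whether the mimic arrays help to set the error.

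The oligoadenylate synthetases, enzymes that sense double-stranded RNA and activate RNase L, lay lowest. Oas2 (probe at chr5:121180343-121180402, mm9) had log2 levels of -2.19 and -2.19 in normal, -4.62 and -4.38 in untreated db/db, -3.32 and -3.68 in control miRNA, and -1.75 and -3.83 in mimic kidney. The db/db arrays lay far below the normal arrays, and both control miRNA arrays lay between them. Oas2 was 4.96-fold lower in untreated db/db kidney, at -4.50 ± 0.17 against -2.19 ± 0.00 (SD, n = 2 each). Its adjusted p in limma was 0.0898 with all 8 arrays and 0.00452 without mimic replicate 1.

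Oas1a (probe at chr5:121346735-121346794, mm9) had log2 levels of 0.35 and 0.66 in normal, -1.25 and -1.28 in untreated, -0.45 and -0.86 in control miRNA, and 0.95 and -0.69 in mimic kidney. Its order of groups was that of Oas2, and untreated and normal kidney did not overlap. The difference of -1.77 had an adjusted p of 0.101 in limma, and 0.00707 without mimic replicate 1. Oasl2, a related protein that acts on RIG-I signalling and DNA sensing, was 2.02-fold lower (adjusted p = 0.399, and 0.0321 without mimic replicate 1). Oas3 was not well above background on any array and was not tested.

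Among the 4 transcription factors of the response all lay lower in both untreated arrays than in either normal array, against 35.0% of all genes. Irf7, which amplifies type I interferon production, had log2 levels of 1.82 and 2.35 in normal, 0.86 and 0.84 in untreated, 1.89 and 1.23 in control miRNA, and 3.01 and 1.32 in mimic kidney. The untreated arrays agreed within 0.02 and the control miRNA arrays lay above them, replicate 1 within the range of the normal pair. Irf7 (probe at chr7:148449104-148449163, mm9) was 2.36-fold lower in untreated kidney (adjusted p = 0.226, and 0.0373 without mimic replicate 1). Irf9 and Stat2, both part of the factor that binds response elements, were lower by 0.85 and 0.90 and passed only without mimic replicate 1, at adjusted p of 0.0191 and 0.0480.

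The ubiquitin-like protein Isg15 and Usp18, the protease that removes it and dampens the receptor, were 2.05-fold lower each, at adjusted p of 0.251 and 0.161. These became 0.0311 and 0.0371 without mimic replicate 1. Isg15 had log2 levels of 1.02 and 1.14 in normal, 0.06 and 0.02 in untreated, 0.82 and 0.21 in control miRNA, and 2.09 and 0.53 in mimic kidney. The untreated pair was the lowest and the closest pair of the 4 groups. Herc6, the ISG15 ligase of the mouse, was well above background on 1 normal and 1 mimic array only and was not tested. Its log2 level was -2.15 on mimic replicate 1 and between -5.61 and -4.49 on the other 7 arrays.

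Of the IFIT proteins, which bind viral RNA, Ifit1 (probe at chr19:34723827-34723886, mm9) had log2 levels of -2.29 and -2.57 in normal, -3.24 and -3.45 in untreated, -2.23 and -2.90 in control miRNA, and -0.45 and -2.60 in mimic kidney. Control miRNA and normal arrays overlapped, and the untreated arrays lay below all others. Ifit1 was 1.88-fold lower in untreated than in normal kidney (adjusted p = 0.436, and 0.0599 without mimic replicate 1). Ifit3 was 1.48-fold lower and passed only without mimic replicate 1 (adjusted p = 0.0276), and for Ifit2 the 2 groups overlapped.

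Guanylate-binding proteins and immunity-related GTPases attack the vacuoles of intracellular microbes, and Mx proteins are large GTPases that act against viruses. The 6 tested GTPases all lay lower in untreated kidney, by 0.20 for Irgm1 to 1.98 for Iigp1, and none passed with all arrays. Once mimic replicate 1 was left out, Mx2 passed, lower by 0.88 (adjusted p = 0.0212), while Iigp1 (0.0601) and Igtp (0.0637) did not. RefSeq annotates Mx1 and Mx2 as transcribed pseudogenes in its mouse assembly, and Mx1 was not well above background on any array. Among the 4 sensors of foreign nucleic acid, Dhx58 was 2.04-fold lower (adjusted p = 0.348, and 0.00809 without mimic replicate 1), and Zbp1 and Ifih1 lay lower without passing in either fit.

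The 9 other effectors differed by a median of -0.52. Ifi44 came closest to passing with all arrays, 1.81-fold lower (adjusted p = 0.0731, and 0.0207 without mimic replicate 1). Parp9, Parp14, Xaf1 and Rtp4 passed without mimic replicate 1 and lay lower by 0.52 to 0.87. Bst2, or tetherin, which holds budding viruses at the membrane, overlapped between the groups.

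Ddx58 (RIG-I) and Rsad2 (viperin) were the only tested members with higher means in untreated kidney, by 0.13 and 0.17, and both directions depend on the probe. The other 3 Ddx58 probes lay lower by 0.53 to 0.68, and the second Rsad2 probe lay lower by 0.58. Both genes were looked at more closely after their values were seen. Of the 14 members with several probes past the filter, the probes of 12 had 1 sign in this comparison, and with the mean of all probes all 31 members lay lower.

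**Figure D3:**
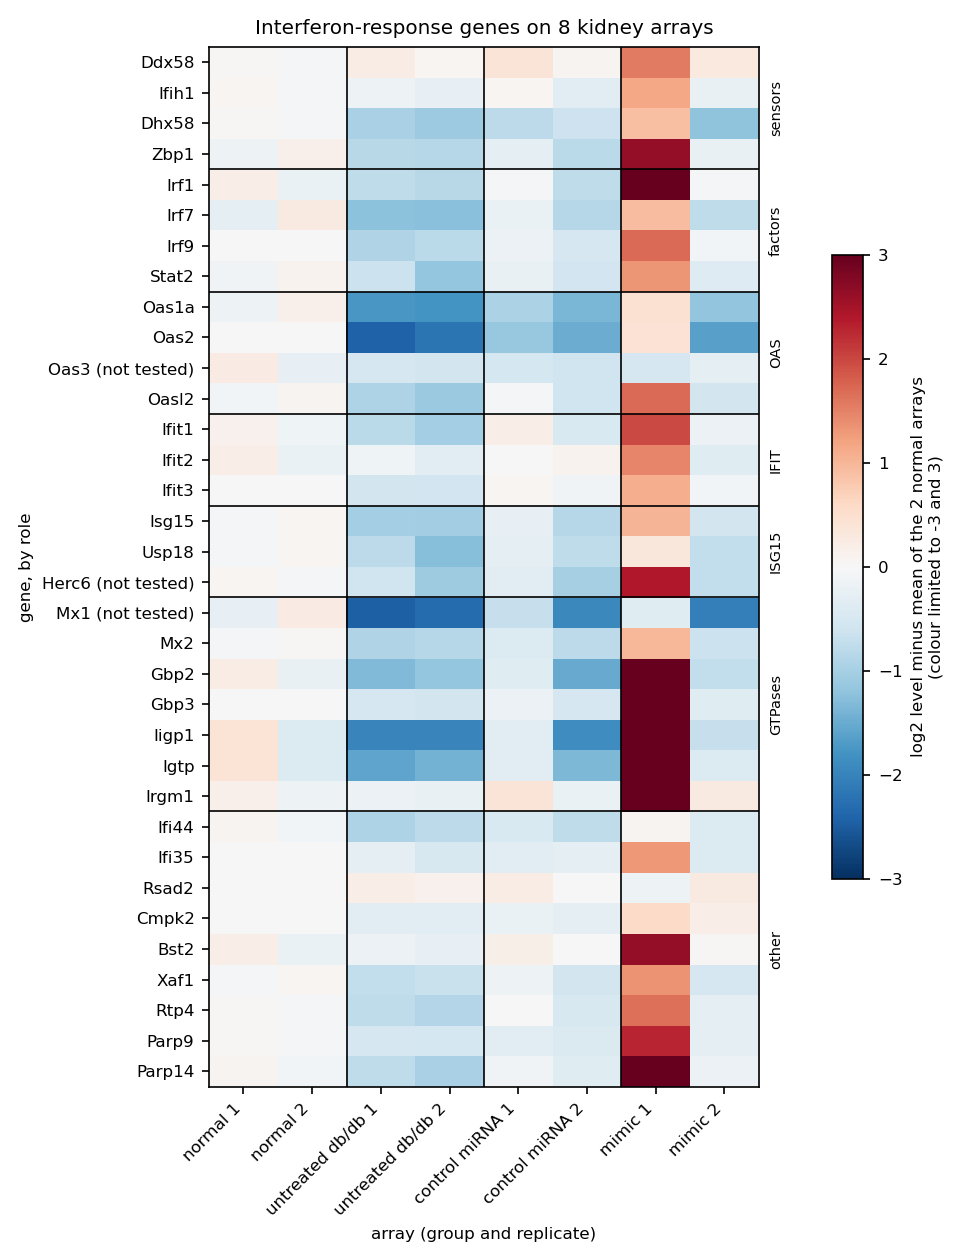
Log2 level of each of the 34 members (rows, by role) minus the mean of the 2 normal arrays, on the 8 arrays (columns), with blue below and red above and the colour limited to -3 and 3. Most rows are blue on the 2 untreated arrays, paler on the control miRNA arrays and mimic replicate 2, and red on mimic replicate 1, where the GTPases reach the limit of the scale. Genes marked as not tested failed the filter on dim probes.

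Markers of cells that could carry these transcripts also differed between untreated and normal kidney, some lower and some higher. The 9 macrophage markers summed to 34.7 and 37.1 in normal and 15.2 and 15.7 in untreated kidney, in units of the array's 75th percentile. All 9 lay lower in both untreated arrays, against 35.0% of all genes. Csf1r (-1.26, adjusted p = 0.0276) and Ms4a7 (-1.78, adjusted p = 0.0112) passed in limma. The 9 markers of T and NK cells summed to 2.84 and 3.06 in normal and 1.63 and 1.79 in untreated kidney, with Cd8a and Klrb1c not well above background on any array. In bulk RNA, fewer cells of a type and less RNA per cell cannot be told apart. The part of these cells in the lower members was not tested.

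Of the 5 dendritic markers tested, 4 had lower means in untreated than in normal kidney. Flt3 and Clec9a were well above background in normal kidney only, and passed the filter on dim probes through that group alone. They were at least 2.20-fold and at least 2.40-fold lower in untreated kidney. No p-value is given for them, since the filter favours this direction. Zbtb46 lay higher in untreated kidney, at -2.96 and -3.61 against -4.15 and -4.05 in normal. Normal replicate 1 also held more adipocyte and urothelial signal, with sums of 72.8 and 12.3 against 10.2 and 3.38 on normal replicate 2. Fabp4 made 68.2% of the adipocyte sum on normal replicate 2, and 95.4% and 93.9% on the untreated arrays. With Fabp4 left out, after the values were seen, the sums were 51.9 and 3.23 in normal and 0.49 and 0.56 in untreated kidney. Of the 8 adipocyte markers, 6 lay lower in both untreated arrays, against 35.0% of all genes, and none passed in limma. Of the members, 18 of 31 were higher on normal replicate 1, against 45.5% of all genes, and 0 of 31 differed more than 2-fold between the 2 normal arrays, against 3.06%. All 6 urothelial markers lay lower in both untreated than in both normal arrays, against 35.0% of all genes, by a median of 2.99. None passed in limma, while 5 had an unadjusted p under 0.05.

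The endothelial and red cell markers went the other way. All 5 endothelial markers had higher means in untreated kidney. Tek (2.15-fold, adjusted p = 0.0160) and Ehd3 (2.06-fold, 0.0162) passed in limma. The red cell sum was 7.62 and 11.9 in normal and 86.7 and 129 in untreated kidney. Hba-a1, Hbb-b1 and Alas2 were higher in both untreated arrays. None of the 4 red cell markers tested passed in limma or had an unadjusted p under 0.05. The part of these tissues, of endothelium and of blood in the members' differences was not tested.

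The second comparison set control miRNA against untreated db/db kidney and asks what nanoparticles with a control RNA change. Here 30 of 31 members had higher means, by a median of 0.35, and 24 had both control miRNA arrays above both untreated arrays, against 19.4% of all genes. No member passed in limma (0 of 31, against 0% of all genes), no member had an unadjusted p under 0.05, and the smallest adjusted p was 1.00. The members with the largest differences were Oas2 (1.00), Iigp1 (0.89), Ifit1 (0.78) and Irf7 (0.71). The second probe of Iigp1 went the other way (-0.201), as did those of Stat2 (-0.315) and Ifi44 (-0.195). With the mean of all probes, 30 of 31 members lay higher. For 26 of the 31 the control miRNA mean lay between the untreated and the normal mean, as it did for 25.9% of all genes with untreated lowest. In the fit without mimic replicate 1, 0 of 31 members passed, against 0% of all genes, and no adjusted p was below 0.537.

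The 2 control miRNA mice differed from each other more than the untreated pair did. Replicate 1 was higher than replicate 2 for 28 of 31 members, by a median of 0.38, against 50.6% of all genes. Iigp1 (0.87 and -0.67), Igtp (1.83 and 0.79) and Gbp2 (-1.37 and -2.51) lay more than 2-fold apart. Without control miRNA replicate 1 the median difference from untreated kidney was 0.15, and without replicate 2 it was 0.63, so 1 mouse of the pair carried most of it. Control miRNA replicate 1 also had the higher urothelial sum, 6.00 against 1.35, and the higher sum of T and NK cell markers, 1.96 against 1.55, and their part in the members' gap was not tested.

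Control miRNA kidney remained below normal for 26 of 31 members, by a median of 0.35. Of these, 17 had both control miRNA arrays below both normal arrays, against 32.8% of all genes. With all arrays 0 members passed in limma, against 1.87% of all genes, and 1 had an unadjusted p under 0.05. Leaving out mimic replicate 1, Oas2 (-1.31, adjusted p = 0.0134), Oas1a (-1.16, 0.0213) and Dhx58 (-0.70, 0.0225) passed, against 11.4% of all genes.

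The third comparison set mimic against control miRNA kidney and asks what miR-181b-5p adds to the carrier. The group means were higher for 30 of 31 members, by a median of 0.80 and up to 3.52 for Iigp1. Only Zbp1, Irf1, Irf9, Ifi44, Cmpk2 and Parp9 had both mimic arrays above both control miRNA arrays, 6 of 31 members against 16.5% of all genes. None of the members passed in limma (0 of 31, against 0% of all genes), and 1 had an unadjusted p under 0.05. On mimic replicate 2 alone the median difference was -0.031 with 15 of 31 members higher, and 0 members passed, against 0.500% of all genes.

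The difference between the groups was thus a difference of 1 mouse. Mimic replicate 1 was above all 7 other arrays for 30 of 31 members, against 21.4% of all genes. It was more than 2-fold above all 7 for 21 members, against 2.20% of all genes, and more than 2-fold above mimic replicate 2 for 28, against 5.15%. These counts describe 1 array and carry no test.

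**Figure D4:**
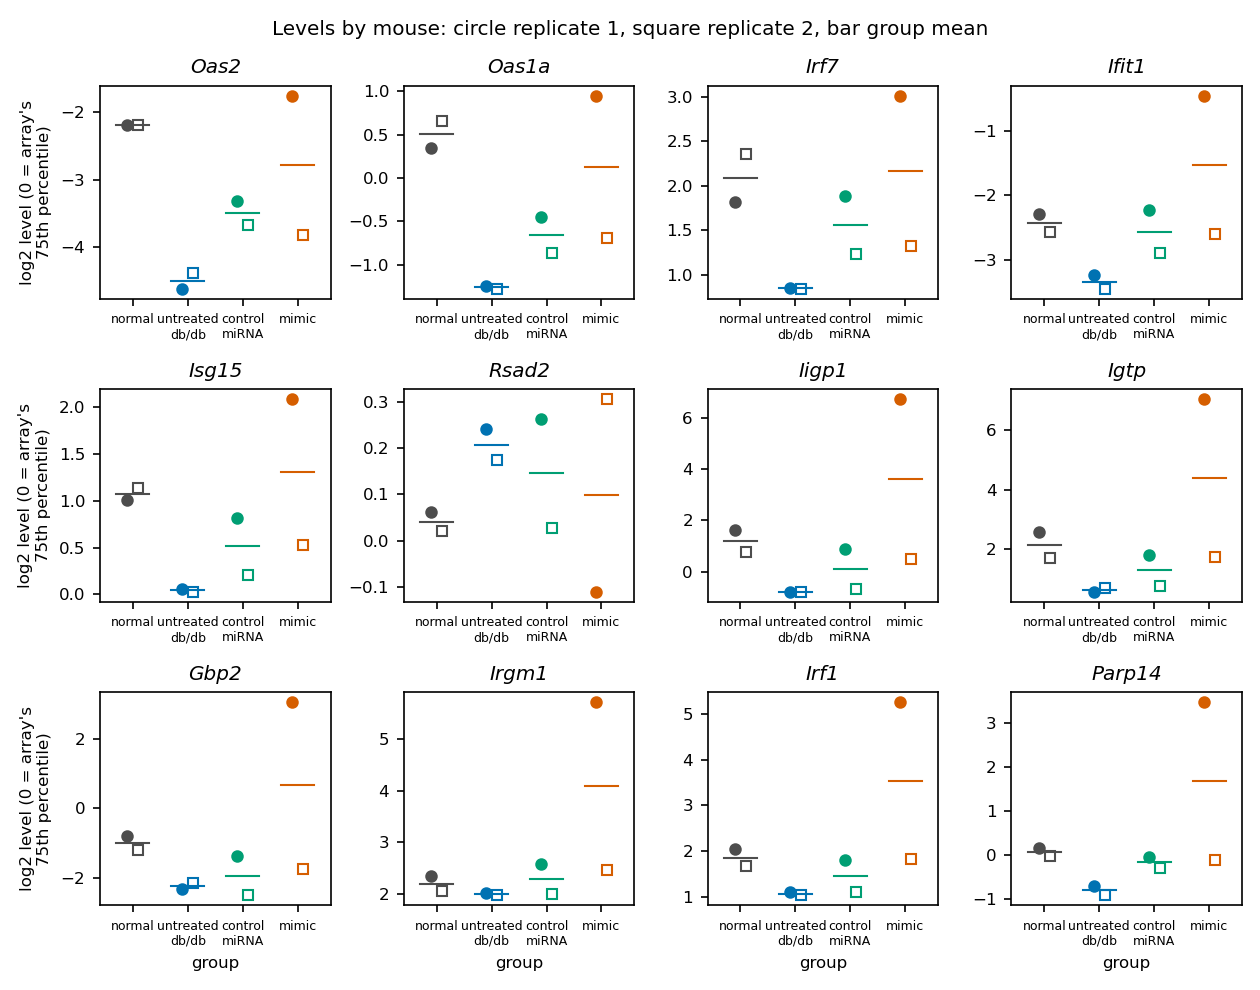
Log2 level of 12 members (vertical axis, 0 is the array's 75th percentile) in each mouse of the 4 groups (horizontal axis), with a filled circle for replicate 1, an open square for replicate 2 and a bar at the group mean. Mimic replicate 1 is the highest point in 11 of the 12 panels, mimic replicate 2 lies near the control miRNA points, and Rsad2 is the exception.

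The gap between the mimic mice was widest for Iigp1, Igtp and Gbp2, GTPases that interferon gamma is known to raise. Iigp1, an immunity-related GTPase, had log2 levels of 1.61 and 0.78 in normal, -0.79 and -0.80 in untreated, 0.87 and -0.67 in control miRNA, and 6.74 and 0.50 in mimic kidney. Mimic replicate 2 lay within the range of the control miRNA arrays, and replicate 1 was 75.6-fold above it. The mimic mean was 3.62 ± 4.41 (SD, n = 2), and its difference from control miRNA was 3.52 with a standard error of 1.84 (adjusted p = 0.606 in limma).

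Igtp, a GTPase of the same family whose joined sites are shown above (probe at chr11:58020927-58020986, mm9), had log2 levels of 2.56 and 1.73 in normal, 0.57 and 0.72 in untreated, 1.83 and 0.79 in control miRNA, and 7.03 and 1.73 in mimic kidney. Only mimic replicate 1 left the range of the other arrays, 39.3-fold above replicate 2. Gbp2, a guanylate-binding protein (probe at chr3:142300719-142300778, mm9), had log2 levels of -0.79 and -1.22 in normal, -2.33 and -2.16 in untreated, -1.37 and -2.51 in control miRNA, and 3.06 and -1.74 in mimic kidney. Replicate 1 was 27.7-fold above replicate 2, which fell among the control miRNA arrays.

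Irf1, the factor that drives many gamma-responsive genes and carries a gamma-activated site (probe at chr11:53590746-53590805, mm9), had log2 levels of 2.06 and 1.68 in normal, 1.11 and 1.05 in untreated, 1.81 and 1.11 in control miRNA, and 5.25 and 1.83 in mimic kidney. Replicate 1 was 10.7-fold above replicate 2, and replicate 2 was just above both control miRNA arrays. Irgm1, which regulates the other GTPases (probe at chr11:48679069-48679128, mm9), had log2 levels of 2.34 and 2.05 in normal, 2.02 and 1.97 in untreated, 2.57 and 2.00 in control miRNA, and 5.72 and 2.46 in mimic kidney. Its first 3 groups hardly differed, and mimic replicate 1 was 9.55-fold above replicate 2. Parp14, an ADP-ribosyltransferase (probe at chr16:35832992-35833051, mm9), had log2 levels of 0.15 and -0.03 in normal, -0.69 and -0.91 in untreated, -0.03 and -0.30 in control miRNA, and 3.47 and -0.11 in mimic kidney. Here too replicate 2 lay with the control miRNA arrays, about 3.58 below replicate 1 on the log2 scale.

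By role, the median gap between mimic replicates 1 and 2 was 4.09 for the 6 GTPases, 2.07 for the oligoadenylate synthetases and 1.82 for the IFIT proteins. It was 1.75 for the transcription factors, 1.75 for the sensors, 1.84 for the other effectors and 1.32 for Isg15 and Usp18. The role with the lowest median in untreated against normal kidney, the oligoadenylate synthetases at -1.77, was thus not the one with the widest gap here. Irgm1 lay only 0.20 below normal in untreated kidney but 3.26 apart between the mimic mice, while Ifi44 lay 0.86 below normal and 0.50 apart between the mimic mice.

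At the low end, Cmpk2, a mitochondrial nucleotide kinase encoded beside Rsad2, lay 0.39 apart, with both mimic arrays (0.81 and 0.42) above all 6 others. It had the smallest adjusted p of the members in this comparison (0.62 higher than control miRNA, adjusted p = 0.294). Rsad2 was the only tested member lower on mimic replicate 1 than on replicate 2, at -0.11 against 0.31. Its second probe differed by 0.14 in the opposite direction. Ifi44 also depended on the probe. The probe used was only 0.013 above the next highest array on mimic replicate 1, and the second, dimmer probe was 0.79 lower there than on replicate 2. Of the 14 members with several probes past the filter, the probes of 12 had 1 sign in this gap.

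Set against untreated db/db kidney, the mimic group was higher for 30 of 31 members, by a median of 1.39, and 26 had both mimic arrays above both untreated arrays, against 20.7% of all genes. No member passed in limma (0 of 31, against 0% of all genes), and 12 had an unadjusted p under 0.05. With mimic replicate 2 alone the median was 0.47 with 27 of 31 members higher, and 0 of 31 passed, against 0% of all genes. Against normal kidney the mimic group was higher for 26 of 31 by a median of 0.55, with 3 members (Ddx58, Irgm1 and Cmpk2) above both normal arrays, against 21.6% of all genes. For Ddx58 this held only on the probe used. On its other 3 probes mimic replicate 2 lay below both normal arrays. Again 0 of 31 passed in limma, against 8.98% of all genes, and 1 had an unadjusted p under 0.05.

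With mimic replicate 1 left out, the comparison with normal kidney took the other direction. The remaining mimic mouse lay below normal for 26 of 31 members, by a median of 0.36. The median over all genes was -0.047. Dhx58 (-1.21, adjusted p = 0.00916 in limma), Oas2 (-1.64, 0.0106) and Oas1a (-1.19, 0.0351) passed, against 8.47% of all genes. In that fit the single mimic array is assumed to vary like the other groups.

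The kidney with high interferon-response genes also had high neutrophil and injury markers. The summed level of the 5 neutrophil markers was 35.9 on mimic replicate 1 and 2.07 to 2.73 on the other 7 arrays, with S100a8, S100a9, Ly6g and Retnlg highest there and Mpo lowest. The 5 markers of tubular injury summed to 623 on mimic replicate 1 against 140 on replicate 2, nearly all of it Spp1 (94.1% and 99.2%). All 5 were highest on mimic replicate 1, against 21.4% of all genes tested. Without Spp1 the sum was 36.7 on that array and 1.03 to 1.80 on the other arrays. Lcn2 had a log2 level of 4.91 against -1.32. Havcr1 (KIM-1) was at -0.57 on mimic replicate 1 and between -5.69 and -4.11 on the other arrays.

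The macrophage markers split on this array. Of the 9, Adgre1 (-0.64 against -2.45 on replicate 2), Cd68, C1qa (0.25 against -1.07), C1qb and Aif1 were highest of all 8 arrays on mimic replicate 1, while Itgam was lowest there (0.93, against 1.98 to 4.21 on the other arrays). Itgam is the brightest of the list, so the macrophage sum of 15.4 on mimic replicate 1 was near that of untreated kidney. With Itgam left out, a choice made after its values were seen, the sum was 13.5 on mimic replicate 1, against 7.77 on replicate 2, 7.50 and 7.73 in untreated and 18.64 and 17.03 in normal kidney.

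None of the 9 T and NK cell markers was highest on mimic replicate 1 (0 of 9). Their sum was lowest of all 8 arrays there, at 1.36, and Cd3e made 73.5% of it. The rank rests on Cd3e, the brightest of the list. With Cd3e left out after the values were seen, the sum was 0.36 on mimic replicate 1 and 0.35 on replicate 2. It was then 0.33 and 0.35 in untreated, 0.50 and 0.29 in control miRNA and 0.75 and 0.73 in normal kidney. Ifng was not well above background on any array. The dendritic sum was 70.8 against 58.5, nearly all of it Siglech, and it includes the member Bst2. The summed level of the red cell markers was 172 on mimic replicate 1 and 6.09 on replicate 2, against 57.4 to 129 in the other db/db kidneys. Hba-a1 made 96.4% of this sum on mimic replicate 1 and 55.3% on replicate 2. The tubule and glomerulus sum was 380 on mimic replicate 1 and 549 on replicate 2. The part of neutrophils, macrophages, red cells and injury in the members' levels on this array was not tested.

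**Figure D5:**
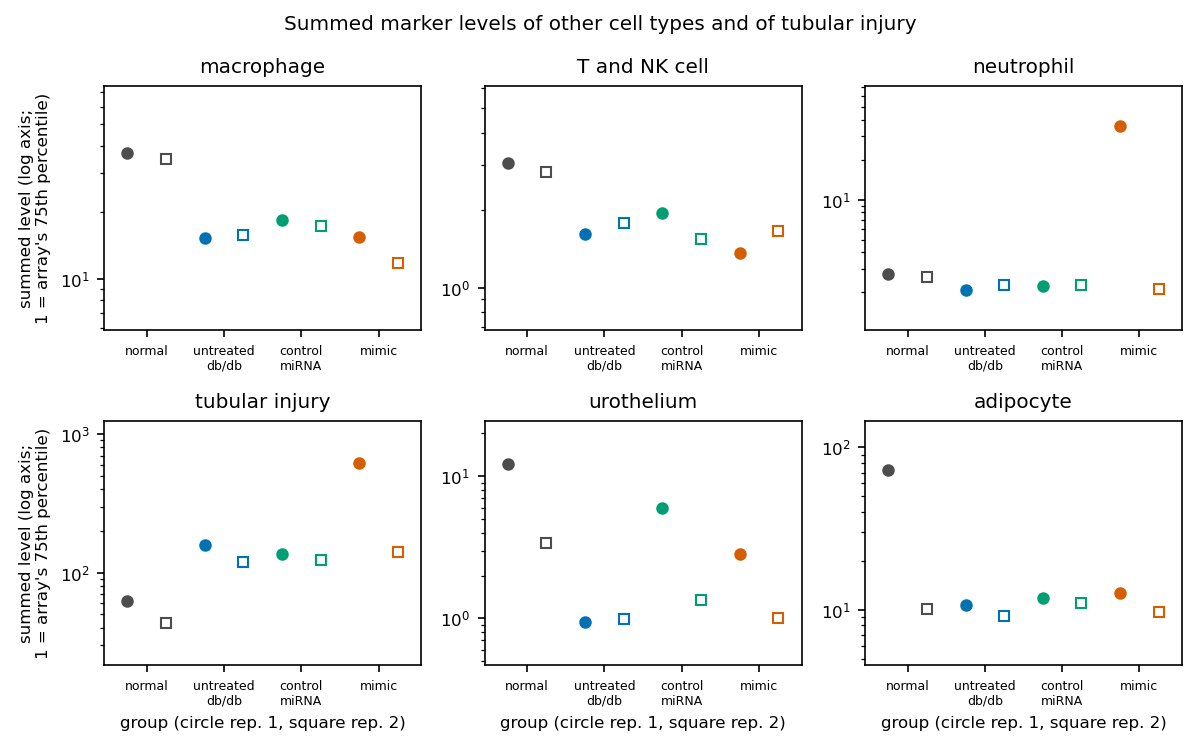
Summed level of the markers of 5 cell types and of tubular injury (log vertical axis, 1 is the array's 75th percentile) on the 8 arrays by group, with circles for replicate 1 and squares for replicate 2. Macrophage and T and NK cell sums are highest in normal kidney, and the neutrophil sum of 35.9 and the injury sum of 623 are both on mimic replicate 1.

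Upstream of the members, 65 of the 73 listed genes of the wider interferon pathway could be tested. Among the ligands, Ifnb1, Ifng, Ifna4 and Ifne were not well above background on any array. Of the 4 ligands that were tested, none was highest on mimic replicate 1, and their gap between the mimic arrays was -0.40 to 0.13. Ifna2, at the edge of detection and not well above background in mimic kidney, was at least 1.43-fold lower there than in normal kidney. It passed the filter on dim probes through normal kidney alone, so no p-value is given for it. Ifnk was 1.94-fold lower in mimic than in normal kidney (adjusted p = 0.0476 in limma).

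The 6 receptor chains had a median gap of 0.50 between mimic replicates 1 and 2, from -0.07 to 0.87. The median of this gap over all genes was -0.064. Ifngr1 had the widest, at 2.81 and 1.94, and 3 of the 6 were highest on mimic replicate 1, against 21.4% of all genes. Ifnar1, a chain of the type I receptor, was 0.65 lower in untreated than in normal kidney and passed only without mimic replicate 1 (adjusted p = 0.0264). Of the kinases, Jak1, Jak2 and Tyk2 lay within 0.27 between the mimic arrays.

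The feedback inhibitors Socs1 and Socs3 were at -1.04 and 2.11 on mimic replicate 1 against -3.67 and -2.11 on replicate 2. The 32 further target genes had a median gap of 1.62 between the mimic arrays. Of them, 25 were highest on mimic replicate 1, against 21.4% of all genes. Gbp6 had the widest gap, at 3.94 against -2.82. These genes were not among the members, but many were known to be targets when the list was drawn up.

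In untreated against normal kidney, 1 of the 65 pathway genes passed in limma with all arrays, against 3.50% of all genes, and 16 had an unadjusted p under 0.05. The gene that passed was Irf5, a factor of Toll-like receptor signalling that is strong in macrophages, lower by 1.51 (adjusted p = 0.0377). Irf5 was also lower than normal after control miRNA (-1.64, 0.0394) and after the mimic (-1.23, 0.0376). When mimic replicate 1 was left out, 13 of the 65 passed as lower and 2 as higher, against 14.9% of all genes called in either direction, among them Nlrc5 (-2.08, 0.0235), Ifi27l2a (-2.31, 0.0421) and Socs1 (-1.40, 0.0491), while Trim25 was higher (1.04, 0.0100).

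Trim25, a ubiquitin and ISG15 ligase that activates RIG-I, was the only pathway gene that passed as higher in mimic than in normal kidney. It had log2 levels of 4.16 and 4.40 in normal, 5.41 and 5.25 in untreated, 5.23 and 5.17 in control miRNA, and 7.53 and 6.69 in mimic kidney. Both mimic arrays lay above all 6 others. Trim25 was 7.09-fold higher than in normal kidney (adjusted p = 0.00597 in limma) and 3.77-fold higher than after control miRNA (adjusted p = 0.140). Without mimic replicate 1 the difference of Trim25 from control miRNA was 1.49, and it then rests on a single mimic mouse.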

How the data were processed

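The authors deposited 1 scanner file per array, made with Agilent Feature Extraction (12.0.3.1, per the submitters' processing notes), which holds the processed intensity of each spot and its quality calls per the file headers. They also deposited a series table of ratios, each probe relative to its median over the arrays on a linear scale, as found from the values (column medians 0.971 to 1.08, correlation with rescaled scanner values at least 0.99952). It served as an alternative. Intensities of 56605 non-control probes were averaged over spots, divided by the array's 75th percentile and put on the log2 scale. A probe was kept if any group had it well above background on both of its arrays (33639 probes), and the probe of highest mean stood for its gene. Between 56.46% and 62.48% of spots per array were well above background, and the number of arrays limits the precision. All 8 arrays entered 1 fit in limma 3.58.1 (R 4.3.3) with 4 residual and 2.23 prior degrees of freedom. The fit was tested on simulated data.

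The rule for the members uses no measured value, but the members, the roles, the pathway and marker lists and the tests were chosen with earlier results of these data known. Values on all arrays are given for the 4 members with the largest difference in each of the 6 comparisons, and others are named by role. Bounds written as at least N-fold set the brighter group's mean against the lowest signal well above background on each array of the dimmer group. Of the 60 member probes, the accession of 48 led to the same gene in RefSeq and 12 were not in its table. Tried in turn were 8 other settings and the removal of each of the 8 arrays. Probe positions are from the array annotation on mm9, and start windows from RefSeq on GRCm38.p6.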

Additional observations from a re-analysis of the deposited data

How the results depend on the processing

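The direction of the members in untreated against normal kidney (29 of 31 lower) was the same under all 16 alternatives except the mean of all probes, where all 31 were lower. The number passing was 2 with normexp background correction and 19 with only the 2 groups compared in the fit. Leaving out 1 array gave 0 to 16, with 16 without either mimic array. The median was -0.62 with normexp. In control miRNA against normal kidney, 1 member passed with only the 2 groups compared, and 0 to 3 when 1 array was left out, with 3 without either mimic array. The median ranged from -0.55 without control miRNA replicate 1 to -0.20 without replicate 2, and against untreated kidney from 0.15 to 0.63.

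For the mimic, leaving out 1 array gave 0 to 28 members passing against control miRNA, 0 to 30 against untreated and 0 to 25 against normal kidney. The upper counts are without mimic replicate 2, which called 13.8%, 18.5% and 28.7% of all genes, and where replicate 1 alone stands for the group and is assumed to vary like the others. The medians ranged from -0.031 to 1.74, 0.47 to 2.24 and -0.36 to 1.46, with the lowest without replicate 1 and the highest without replicate 2. Against normal kidney Iigp1 ranged from -0.69 to 5.55, Igtp from -0.41 to 4.88 and Irf1 from -0.036 to 3.38, turning negative without mimic replicate 1.

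The labels do not say whether equal replicate numbers pair the mice. Correlations of the replicates' deviations ran from -0.02 to 0.16 over 6 pairs of groups, with 3 over 0.1. Values of this size cannot settle whether the mice were paired. The fit with a replicate block called 0 members in all 6 comparisons. Quantile normalization moved the split of all genes called against normal kidney from 151 higher and 268 lower to 240 and 254 after control miRNA, and from 681 and 1329 to 839 and 848 after the mimic. With no filter on dim probes the median of all genes in untreated against normal kidney was -0.18, that of the members -0.85. Oas3, Mx1 and Herc6 are limited by signal over background.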
